A study of Homo sapiens with 4 samples.

Results

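The extracellular matrix genes described here are 55 genes for collagen chains, laminin chains, basement membrane linkers, collagen folding and crosslinking enzymes, matrix proteoglycans, microfibril proteins and matricellular proteins. They were chosen by symbol, with earlier results of these data known. Of the 55, 54 had a probe set annotated with exactly 1 gene symbol, out of 19775 genes that could be represented in this way. LAMA3 was not analysed here. COL3A1, COL5A2, FBN2 and THBS2 read below the filter level of 4.77 on every array, which left 50 of the 15082 genes kept. The filter level is the 40th percentile of all deposited values, and a gene was kept when at least 1 array reached it.

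The cells were MDA-MB-231, an established line from a human breast carcinoma with mesenchymal features, and their RNA was measured on 4 Affymetrix U133 Plus 2 arrays. The first group was a line stably transduced with an shRNA against ZEB2, and its control was a line stably transduced with the pLVTH vector. The second pair was transient, with a pool of siRNAs against ZEB2 set against siRNA to luciferase, a gene that these cells lack, each at 20 nM, with washing after 24 hours and harvest after 48 further hours. ZEB2 encodes a zinc-finger repressor that binds paired CACCT-type elements and lowers E-cadherin during epithelial-mesenchymal transition. Each group had 1 array, so no difference between 2 arrays has a replicate check, and neither clones nor parallel cultures are described in the labels. RNA for the stable pair was labelled from 2 µg and RNA for the transient pair from 100 ng, so between the pairs the method, the culture and the labelling input cannot be told apart. Differences below are knockdown minus control, or siRNA control minus shRNA control, on the log2 scale, where 1 unit is 2-fold.

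Collagens are secreted as trimers of chains wound into a triple helix. Their lysines are hydroxylated inside the cell, the helix is escorted by the chaperone SERPINH1, and outside the cell lysyl oxidases join the molecules by covalent crosslinks. Fibrillar collagens carry tension in stroma, whereas type IV collagen and the alpha-beta-gamma trimers of laminin build the sheets of the basement membrane, which nidogens and heparan sulfate proteoglycans hold together. Microfibril proteins and their latent TGF-beta binding partners store growth factor in this network, and carcinoma cells both deposit and remodel it.

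On every array the 5 markers fixed for the line (VIM, CD44, AXL, CAV1 and MSN) read between 12.1 and 14.1. Among 6 genes named as low in the line, PGR was below the filter level on every array, and ESR1, ERBB2, GATA3 and EPCAM were above it on every array, against their place in that list. The E-cadherin gene CDH1 read 4.26 and 3.54 on the shRNA ZEB2 and vector control arrays and 8.35 and 7.37 on the siRNA ZEB2 and luciferase control arrays. The targeted gene, ZEB2, read 3.52 in the shRNA knockdown and 6.12 in its control, and 3.51 in the siRNA knockdown and 6.56 in its control. In each pair the array labelled as the knockdown was the lower one and lay below the filter level, so no fold is given. Of 5 fibroblast and mural cell markers, PDGFRA and FAP were below the filter level throughout, as were the endothelial CDH5 and the leukocyte PTPRC. The summed log2 level of the 5 fibroblast and mural markers was 26.9 in the shRNA knockdown and 26.9 in its control, and 26.7 in the siRNA knockdown and 26.3 in its control. The 4 endothelial markers summed to 19.1 and 20.9 in the shRNA pair and to 21.3 and 20.8 in the siRNA pair, knockdown first. The 3 leukocyte markers measured summed to 15.2 and 15.6, and to 14.7 and 14.5. Their part in the results below was not tested.

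The upstream sequences of 5 collagen and microfibril genes are given here because the results return to them. COL4A1 with COL4A2, and COL4A5 with COL4A6, are pairs of type IV collagen genes that lie head to head and are transcribed away from each other. In RefSeq annotation of GRCh38.p14 their starts are 127 and 380 bases apart, on chromosome 13 and chromosome X. COL6A3 and LTBP1 were lower in both knockdowns, and COL12A1 was higher in the stable one. The first sequence is the whole interval of 126 bases between the COL4A1 and COL4A2 starts (chr13:110307158-110307283, minus strand), and the others are the 250 bases before the start of COL4A5 (chrX:108439588-108439837, plus strand), COL6A3 (chr2:237414165-237414414, minus strand), LTBP1 (chr2:32946703-32946952, plus strand) and COL12A1 (chr6:75206054-75206303, minus strand). Each is printed 5′ to 3′ on the strand of the named gene, from RefSeq, with capitals at CACCT or its reverse complement AGGTG, the core of ZEB-type elements.
COL4A1: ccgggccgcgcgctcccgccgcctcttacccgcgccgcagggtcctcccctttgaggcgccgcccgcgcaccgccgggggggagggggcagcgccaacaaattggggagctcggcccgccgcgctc
COL4A5: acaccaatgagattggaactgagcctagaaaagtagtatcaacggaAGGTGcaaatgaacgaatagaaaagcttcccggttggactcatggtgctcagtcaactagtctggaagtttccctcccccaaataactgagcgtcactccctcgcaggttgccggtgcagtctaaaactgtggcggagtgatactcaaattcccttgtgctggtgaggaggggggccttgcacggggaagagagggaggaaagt
COL6A3: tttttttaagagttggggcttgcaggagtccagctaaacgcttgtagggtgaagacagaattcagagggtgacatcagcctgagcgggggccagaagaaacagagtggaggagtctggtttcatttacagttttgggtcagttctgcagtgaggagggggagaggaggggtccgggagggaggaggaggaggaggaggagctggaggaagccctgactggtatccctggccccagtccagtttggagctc
LTBP1: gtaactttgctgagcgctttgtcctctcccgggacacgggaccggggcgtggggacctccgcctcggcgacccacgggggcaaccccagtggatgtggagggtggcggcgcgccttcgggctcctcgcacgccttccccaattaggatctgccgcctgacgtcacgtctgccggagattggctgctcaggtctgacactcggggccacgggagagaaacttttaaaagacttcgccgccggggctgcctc
COL12A1: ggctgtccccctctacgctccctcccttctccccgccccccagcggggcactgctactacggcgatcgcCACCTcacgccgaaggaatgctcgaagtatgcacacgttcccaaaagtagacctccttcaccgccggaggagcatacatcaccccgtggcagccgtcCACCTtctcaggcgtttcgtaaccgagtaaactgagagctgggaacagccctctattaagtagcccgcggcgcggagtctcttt
COL12A1 held 2 matches and COL4A5 held 1, and the other 3 sequences held 0. Over the 250 bases before the start, 17 of the 41 genes of the list found in the promoter table (41.5%) held CACCT on either strand, against 45.3% of all 27305 promoters of that length. The longer CACCTG, which contains CACCT, was present in 5 of the 41 (12.2%), against 17.5% of all. The 5 genes were COL16A1, LAMA5, LAMB3, LOXL4 and LTBP3. These are letter matches in a short window and say nothing of binding.

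In the stable knockdown the matrix genes spread widely around their control. Of the 50 kept, 4 were at least 2-fold higher (8%), namely LUM, LOX, COL12A1 and LOXL1, where 2.39% of all genes were. Another 5 were at least 2-fold lower (10%), namely COL6A3, LAMA4, LTBP1, CEMIP and LTBP3, where 2.08% of all genes were. The standard deviation of the difference over genes was 0.948 for the matrix genes and 0.499 for all genes kept, while the medians were 0.12 and -0.02. In the transient knockdown no matrix gene was 2-fold higher, where 0.0464% of all genes were, and 1, COL6A3, was 2-fold lower, where 0.126% were. At 1.5-fold, LOXL4 and CEMIP were higher in the transient pair, 2 of 50 against 0.69% of all genes, and COL6A3 and LTBP1 were lower, 2 of 50 against 1.51%. The medians there were -0.01 for the matrix genes and -0.02 for all genes, with standard deviations of 0.362 and 0.235. Since 1 array stands for each group, these counts describe the arrays, and a change in RNA per cell cannot be told apart from a change in the share of cells that make it. Because the list was chosen with earlier results of these data known, its shares beside those of all genes are not an independent result.

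**Figure D1:**
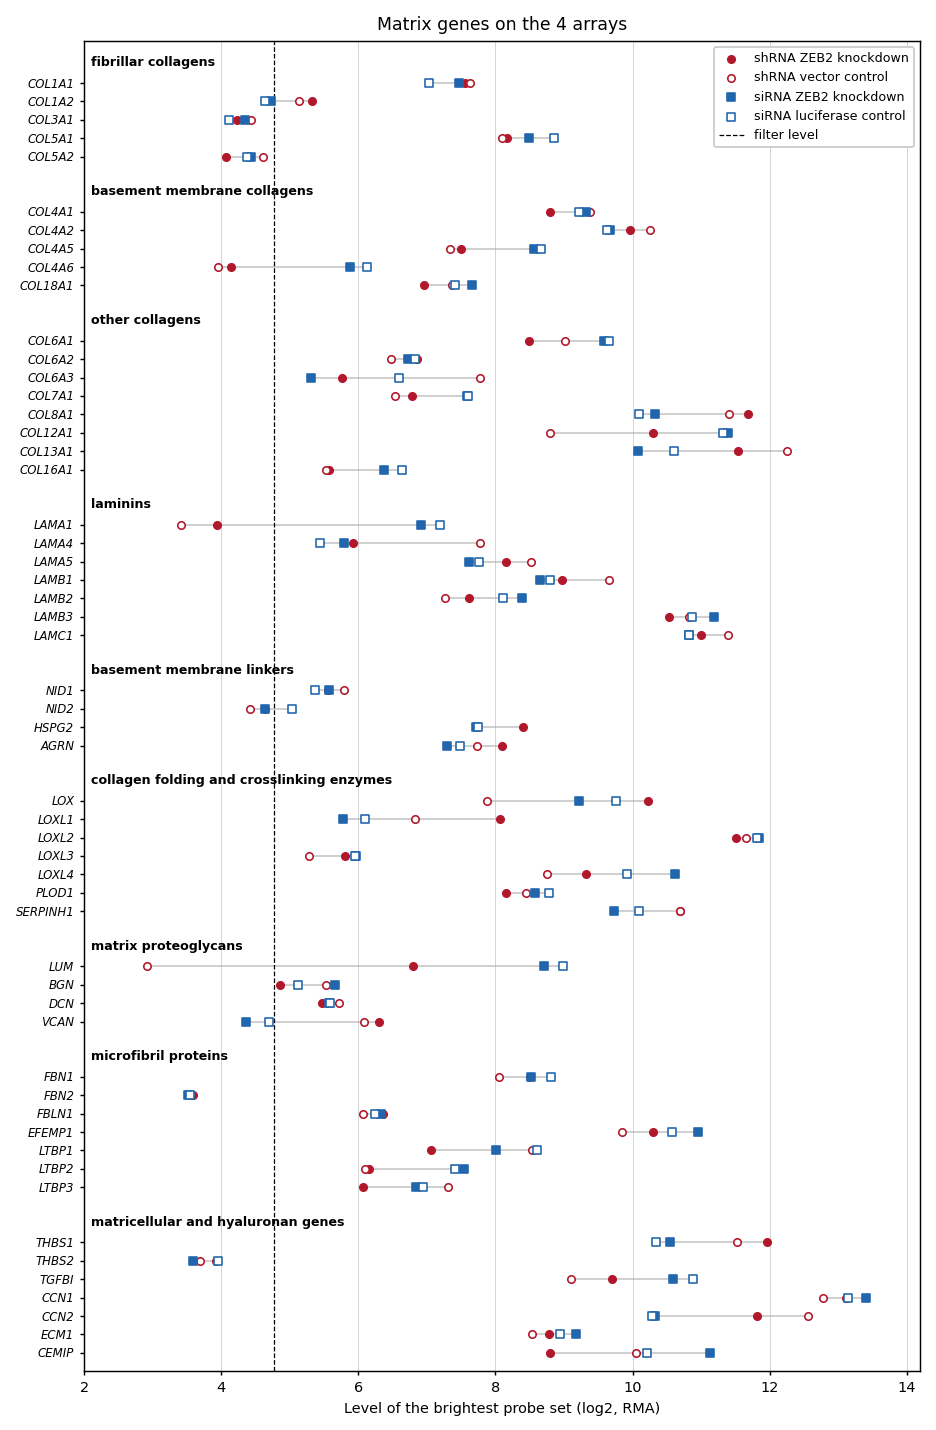
Level of the brightest probe set of the 54 matrix genes measured (log2, horizontal axis), by functional group, on each of the 4 arrays, with the filter level of 4.77 as a dashed line. LUM read 6.80 in the shRNA knockdown and 2.92 in the vector control, the widest gap of either pair in the plot, and for 46 of the 50 genes kept the siRNA symbols lie within 1.5-fold.

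COL6A3 had the lowest difference of the 50 genes in each pair. It encodes the alpha3 chain, the largest of the classical chains of type VI collagen, which forms beaded filaments around cells. It read 5.76 in the shRNA knockdown and 7.78 in the vector control, 4.07-fold lower. It read 5.31 in the siRNA knockdown and 6.59 in the luciferase control, 2.43-fold lower. Both knockdown arrays were thus below both control arrays. Among the 15082 genes it ranked 41st from the lowest in the stable pair and 8th in the transient pair. Of the chains with which it assembles, COL6A1 differed by -0.53 and -0.07 and COL6A2 by 0.37 and -0.10 in the stable and transient pairs. Other COL6A1 probe sets above the filter level gave -0.22 to 0.46 in the stable pair, with a mean of 0.06 over all of its probe sets, and the second COL6A2 probe set gave -0.23 and 0.29, so neither gene had a settled direction. COL6A3 has a single probe set on the array, so no second one could be set beside it.

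LTBP1, which encodes a protein that tethers latent TGF-beta to microfibrils, was the other member at least 1.5-fold lower in both knockdowns. It read 7.06 in the shRNA knockdown and 8.54 in the vector control, 2.78-fold lower, and 8.01 in the siRNA knockdown and 8.61 in the luciferase control, 1.51-fold lower. On this probe set both knockdown arrays were again below both control arrays. The second probe set gave -1.41 in the stable pair and -0.12 in the transient one, so the transient difference rests on 1 probe set. In all, 2 of 50 matrix genes (4%) were 1.5-fold lower in both pairs, where 0.332% of all genes were, and 0 were 1.5-fold higher in both, where 0.126% of all genes were. Nearest to being 1.5-fold higher in both was LOXL4, a lysyl oxidase paralog, which read 9.33 in the shRNA knockdown and 8.75 in its control, and 10.62 in the siRNA knockdown and 9.92 in its control, differences of 0.57 and 0.70. LOXL4's other probe set gave -0.32 and 0.40.

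Between 1.5-fold and 2-fold in the stable knockdown were HSPG2 (0.68) and TGFBI (0.59) among the higher genes, and CCN2 (-0.75), COL13A1 (-0.72), LAMB1 (-0.70), BGN (-0.68) and COL4A1 (-0.59) among the lower ones. None of these 7 reached 1.5-fold in the transient pair. Other probe sets above the filter level gave 0.16 for HSPG2, -0.09 for BGN and -0.22 for COL4A1 in the stable pair. They gave -0.83 for LAMB1 and -0.85 and -0.67 for COL13A1, while TGFBI and CCN2 have a single probe set. By sign alone, 12 of the 50 genes were higher in both knockdowns and 11 lower in both, 16 were higher in the stable and lower in the transient one, and 11 the other way round. Over all genes 20.6% were higher in both and 27.8% lower in both, so these counts (24% and 22% of the list) were near the background.

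A common knockdown effect was fitted with limma over all 15082 genes, with the method as a block, which leaves 1 residual degree of freedom and takes the 2 methods as the replicates. No matrix gene had a limma adjusted p under 0.05, and neither did any other gene (0% called), the targeted ZEB2 included. The absence of calls therefore says little about any single gene. COL6A3 had a mean difference of -1.65 ± 0.24 (SE), an unadjusted limma p of 0.00268 and an adjusted limma p of 0.971. COL13A1 (-0.62 ± 0.15), LOXL4 (0.64 ± 0.16) and LTBP1 (-1.03 ± 0.28) also had an unadjusted limma p under 0.05, which makes 4 of 50 members, against 384 of all genes (2.55%). The 50 mean differences were 25 above 0 and 25 below it.

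**Figure D2:**
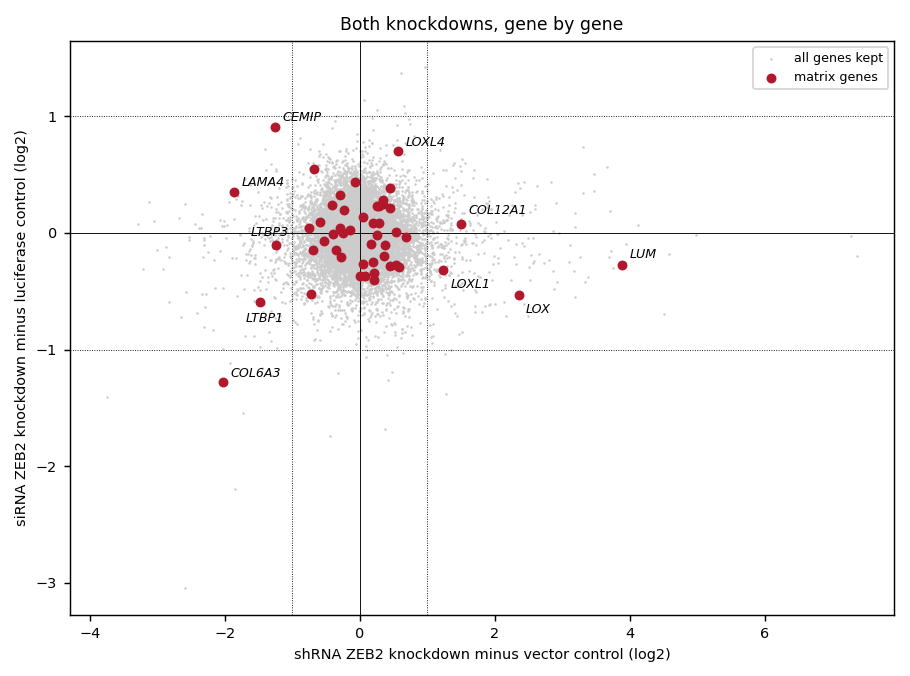
Difference in the siRNA pair (vertical axis, log2) against the difference in the shRNA pair (horizontal axis, log2) for all 15082 genes kept (grey) and the 50 matrix genes (red), with dotted lines at 2-fold. COL6A3 lies beyond 2-fold on both axes at -2.02 and -1.28, and CEMIP lies at -1.26 and 0.91.

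Among the crosslinking enzymes, 2 genes were 2-fold higher in the stable knockdown. LOX encodes the lysyl oxidase that oxidises lysines of collagen and elastin so that crosslinks can form. It read 10.23 in the shRNA knockdown and 7.87 in the vector control, 5.13-fold higher. It read 9.23 in the siRNA knockdown and 9.76 in the luciferase control, a difference of -0.54. On this probe set the vector control was thus the lowest of the 4 arrays and the shRNA knockdown the highest. On the dimmest LOX probe set the vector control (6.02) stood above the siRNA knockdown (5.19) and its control (5.69). All 3 LOX probe sets were alike within the pairs, with differences of 2.36, 2.48 and 2.15 in the stable pair and -0.54, -0.67 and -0.50 in the transient one.

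LOXL1, whose product acts mainly on elastic fibres, read 8.07 in the shRNA knockdown and 6.83 in the vector control, 2.35-fold higher. In the siRNA knockdown it read 5.78 and in the luciferase control 6.09, so both shRNA arrays were above both siRNA arrays. LOXL2, which crosslinks type IV collagen, had one of the 5 strongest signals of the list and hardly differed: 11.51 in the shRNA knockdown and 11.66 in its control, and 11.84 in the siRNA knockdown and 11.81 in its control. LOXL3 differed by 0.53 and 0.01 in the stable and transient pairs. The lysyl hydroxylase gene PLOD1 differed by -0.29 and -0.21, and SERPINH1, the collagen chaperone, by -0.0011 and -0.37. Over the 7 genes the median was 0.54 in the stable pair, with 4 higher and 3 lower, and -0.21 in the transient pair, with 3 higher and 4 lower. Of all 15082 genes, 7032 were higher in the stable pair and 6932 in the transient pair.

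LUM encodes lumican, a small leucine-rich proteoglycan that spaces collagen fibrils, and it had the largest difference of the list. It read 6.80 in the shRNA knockdown and 2.92 in the vector control, and 8.71 in the siRNA knockdown and 8.99 in the luciferase control. Only the vector control array lay below the filter level. The stable difference was 3.89, the 8th highest of all 15082 genes, and the transient one -0.28. Because that array read in the dim range, the size of the stable difference is uncertain. The second LUM probe set lay under the filter level on every array and gave 0.18 and 0.31, and the mean of both gave 2.03 in the stable pair. Of the other proteoglycans, BGN differed by -0.68 and 0.54, DCN by -0.24 and -0.0050, and VCAN by 0.22 and -0.35. The second BGN probe set above the filter level gave only -0.09 and 0.09.

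COL12A1 encodes a fibril-associated collagen that sits on the surface of larger fibrils. It read 10.29 in the shRNA knockdown and 8.80 in the vector control, 2.82-fold higher, and 11.40 in the siRNA knockdown and 11.32 in the luciferase control. On this probe set the vector control was again the lowest array, whereas on another it (5.76) stood above the siRNA knockdown (4.78) and its control (4.57). Of the 5 COL12A1 probe sets, 4 gave between 1.28 and 1.86 in the stable pair, while 1, which was below the filter level on both shRNA arrays, gave 0.15. In the transient pair they ranged from -0.53 to 0.21.

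The other collagens differed less. COL13A1, a collagen that spans the plasma membrane, read 11.54 in the shRNA knockdown and 12.26 in the vector control, and 10.08 in the siRNA knockdown and 10.61 in the luciferase control. It was lower in both knockdowns, by 0.72 and 0.53, and its 3 probe sets gave -0.67 to -0.85 in the stable pair and -0.12 to -0.53 in the transient one. The fibrillar chains kept by the filter, COL1A1, COL1A2 and COL5A1, lay between -0.07 and 0.20 in the stable pair and between -0.37 and 0.44 in the transient pair. The brightest COL1A1 probe set can cross-hybridise, as its suffix _x_at shows, and the next brightest gave -0.28 in the transient pair in place of 0.44.

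For type IV collagen, COL4A1 differed by -0.59 and COL4A2 by -0.30 in the stable pair, and by 0.10 and 0.04 in the transient pair. COL4A5 and COL4A6 gave 0.16 and 0.19 in the stable pair, and -0.09 and -0.25 in the transient pair. COL4A6 lay below the filter level on both shRNA arrays, so its stable difference carries little. The second probe sets of COL4A1 and COL4A2 gave -0.22 and -0.37 in the stable pair and -0.21 and -0.08 in the transient pair, so the transient signs depended on the probe set. COL18A1, whose C-terminal fragment is endostatin, differed by -0.42 and 0.24, but its second probe set gave 0.58 and -0.22, so its direction was not settled in either pair.

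Among laminin chains, 5 of the 7 measured were lower in the stable knockdown and 2 higher, with a median of -0.36. Of all 15082 genes, 8030 were lower there. In the transient pair 4 laminin chains were lower and 3 higher, with a median of -0.01, where 8104 of all genes were lower. LAMA4, an alpha chain of vessel, muscle and nerve basement membranes, read 5.92 in the shRNA knockdown and 7.78 in the vector control, 3.64-fold lower. It read 5.79 in the siRNA knockdown and 5.44 in the luciferase control, a difference of 0.35. On this probe set the vector control was the highest array, with the other 3 close together, whereas on another the shRNA knockdown (5.31) stood above the siRNA knockdown (3.55) and its control (3.68). The 3 LAMA4 probe sets above the filter level gave -1.86, -2.09 and -3.13 in the stable pair. That at -2.09 reached the level only in the vector control (6.83), and that at -3.13 was under it on both siRNA arrays. The widely used LAMB1 and LAMC1 chains differed by -0.70 and -0.39 in the stable pair and by -0.14 and -0.01 in the transient one. The second LAMC1 probe set gave 0.0095 and 0.045, so the direction of LAMC1 was not settled in either pair. LAMB3, a chain of epithelial anchoring laminin, gave -0.30 and 0.32. LAMA1, LAMA5 and LAMB2 gave 0.53, -0.36 and 0.35 in the stable pair and -0.28, -0.15 and 0.28 in the transient pair. The linkers NID1, NID2, HSPG2 (perlecan) and AGRN (agrin) lay between -0.24 and 0.68 in the stable pair, with HSPG2 highest, and between -0.40 and 0.20 in the transient pair. The value of -0.40 was that of NID2, which reached the filter level only in the luciferase control (5.03).

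LTBP3, a second binding protein of latent TGF-beta, read 6.06 in the shRNA knockdown and 7.31 in the vector control, 2.37-fold lower, and 6.84 in the siRNA knockdown and 6.94 in the luciferase control. The shRNA knockdown was the lowest of the 4 arrays. Its other probe sets gave -0.41 and -0.31 in the stable pair, and the mean of all 3 gave -0.66, short of 2-fold. LTBP2, which does not bind latent TGF-beta, differed by 0.05 and 0.13. The fibrillin gene FBN1 and the fibulin genes FBLN1 and EFEMP1 were higher in the stable pair by 0.45, 0.29 and 0.44, and gave -0.28, 0.09 and 0.38 in the transient pair.

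Matricellular genes, whose products signal from the matrix more than they build it, included 3 of the 5 strongest signals. CCN1 read 13.12 in the shRNA knockdown and 12.78 in the vector control, and 13.40 in the siRNA knockdown and 13.15 in the luciferase control, differences of 0.34 and 0.25. CCN2, like CCN1 a target of the YAP coactivator, read 11.82 in the shRNA knockdown and 12.57 in the vector control, and 10.33 in the siRNA knockdown and 10.29 in the luciferase control. For CCN2 the shRNA arrays were both above the siRNA arrays, and the differences were -0.75 and 0.04. THBS1, an adhesive protein that can activate latent TGF-beta, read 11.97 in the shRNA knockdown and 11.52 in the vector control, and 10.55 in the siRNA knockdown and 10.34 in the luciferase control, differences of 0.45 and 0.21. TGFBI differed by 0.59 and -0.29 and ECM1 by 0.25 and 0.23.

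CEMIP, which encodes a protein needed for breakdown of hyaluronan, had opposite signs in the pairs. It read 8.79 in the shRNA knockdown and 10.05 in the vector control, 2.39-fold lower, and 11.13 in the siRNA knockdown and 10.22 in the luciferase control, 1.88-fold higher. On this probe set the control arrays were close together, with the shRNA knockdown below them and the siRNA knockdown above. On the second probe set the vector control read 6.45 and the luciferase control 5.10, and the siRNA knockdown (5.34) lay below both shRNA arrays. CEMIP was the only one of the 50 matrix genes at least 1.5-fold in opposite directions in the pairs (2%), where 0.404% of all genes were. Averaged over both of its probe sets, the differences were -0.83 and 0.57.

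**Figure D3:**
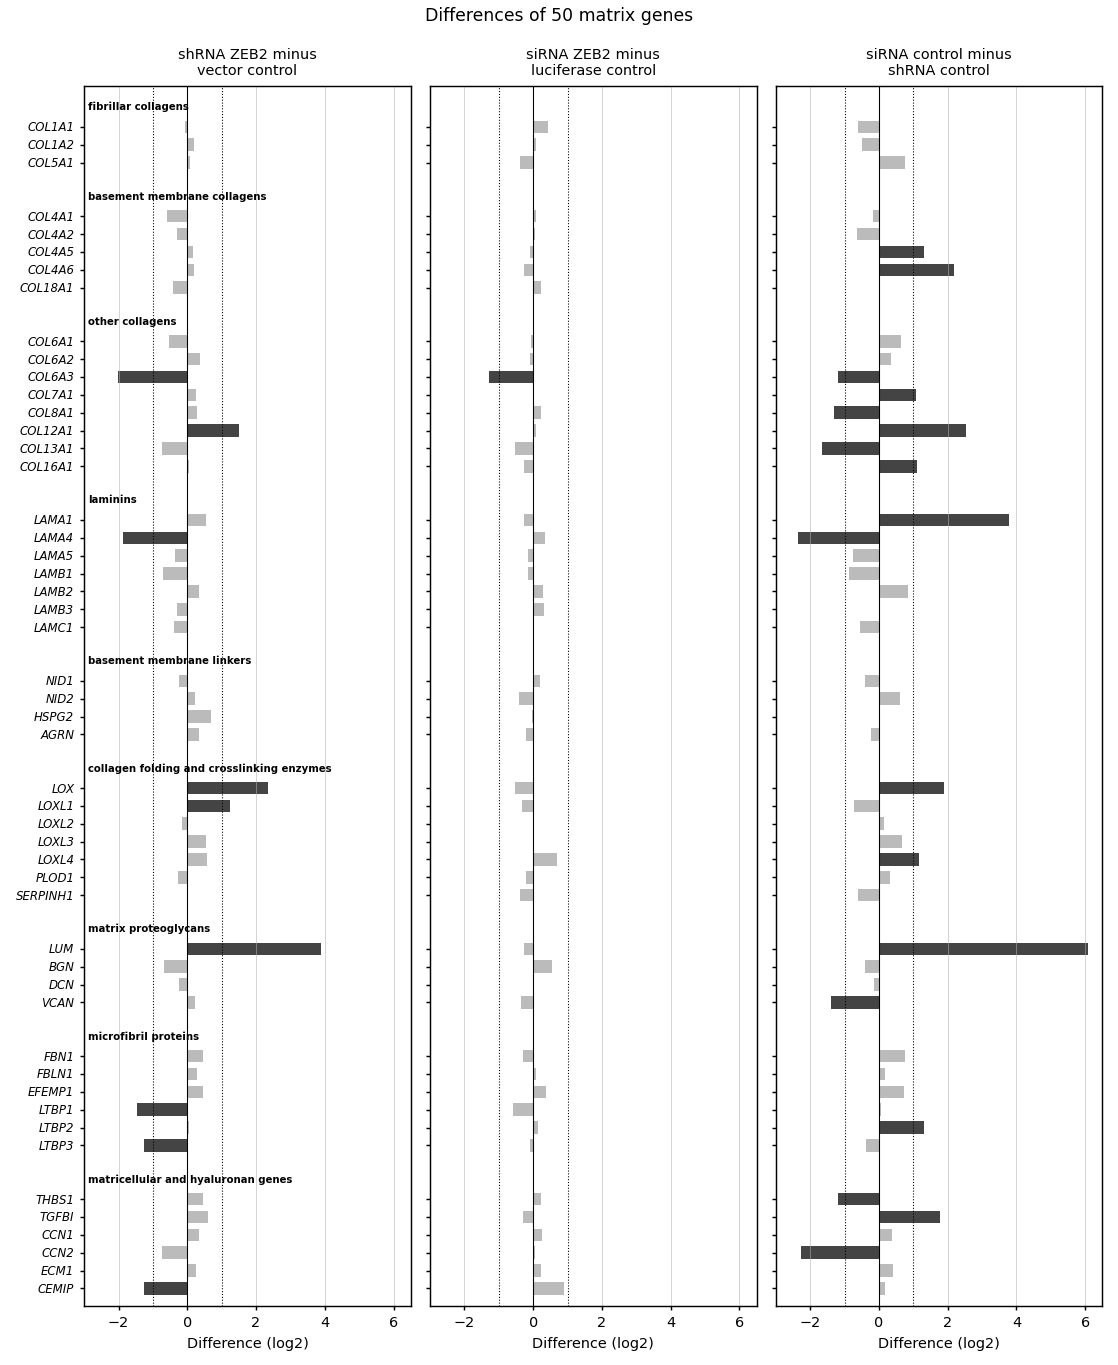
Differences (log2, horizontal axes) of the 50 matrix genes kept, by functional group, in the shRNA pair, the siRNA pair and between the controls, with dark bars at 2-fold or more and dotted lines at 2-fold. Dark bars number 9, 1 and 18 in the 3 panels, and COL6A3 is dark in each.

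The control arrays differed more from each other than either did from its knockdown. Of the 50 genes, 11 read 2-fold or more above the shRNA control in the siRNA control (22%), where 10.8% of all genes were, and 7 at least 2-fold lower (14%), where 4.99% were. LAMA1 and COL4A6 among the 11, and VCAN among the 7, passed the filter only through the arrays where they were high. The standard deviation was 1.44 over the matrix genes and 0.823 over all genes. This comparison shares the shRNA control with the stable pair and the siRNA control with the transient pair, so the values are given side by side only. Of the 9 genes at 2-fold in the stable pair, 5 also differed 2-fold between the controls. In the siRNA control minus the shRNA control, LUM gave 6.07, COL12A1 2.52, LOX 1.89, LAMA4 -2.34 and COL6A3 -1.19. For these 5 the vector control lay farther from the siRNA arrays' mean than the stable knockdown did, as it did for 33 of the 50. Neither count was taken over all genes. Of all genes kept, 4.47% were at 2-fold in the stable pair. Among those within 2-fold between the controls the share was 1.79%, so such overlap also occurred outside the matrix genes. Over all genes kept, the vector control was also less like the siRNA knockdown and its control (Pearson r 0.926 and 0.928) than the stable knockdown was (0.949 and 0.952). The counts are therefore not shown to be particular to the matrix genes. The other 4 of the 9, LOXL1 (-0.74), LTBP1 (0.07), LTBP3 (-0.37) and CEMIP (0.17), were within 2-fold between the controls on the brightest probe set. The second probe sets of LTBP1 (-1.44) and CEMIP (-1.35) were not, so this split depends on the probe set.

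In 6 genes both siRNA arrays were above both shRNA arrays by 1 unit or more on the brightest probe set, whichever of them carried the knockdown. These were COL4A5, COL4A6, COL12A1, LAMA1, LUM and LTBP2. Neither this count nor that of 3 genes below was taken over all genes, so no background stands beside them. For COL12A1 it depended on the probe set. Another read 4.78 and 4.57 on the siRNA arrays and 7.05 and 5.76 on the shRNA arrays, while a dim one (5.12 and 4.98 against 3.50 and 3.35) kept the order. LAMA1, an alpha chain of embryonic and some epithelial basement membranes, read 6.91 in the siRNA knockdown and 7.19 in its control, and 3.94 in the shRNA knockdown and 3.41 in its control. It was below the filter level on both shRNA arrays, as was COL4A6, which read 5.87 and 6.13 on the siRNA arrays and 4.14 and 3.95 on the shRNA arrays, knockdown first in each pair. Both genes were kept only through the siRNA arrays, so their place here was largely fixed by the filter. In 3 genes, COL8A1, VCAN and CCN2, both siRNA arrays were below both shRNA arrays by at least 1. VCAN was below the filter level on the siRNA arrays and was kept only through the shRNA arrays. COL8A1, a short-chain collagen of vessel walls and the eye, read 10.33 in the siRNA knockdown and 10.09 in its control, and 11.68 in the shRNA knockdown and 11.40 in its control. COL4A5, an alpha chain of kidney and other basement membranes, read 8.57 and 8.66 on the siRNA arrays and 7.50 and 7.34 on the shRNA arrays. LTBP2 read 7.54 and 7.41 on the siRNA arrays and 6.15 and 6.10 on the shRNA arrays, knockdown first. Also 2-fold higher in the siRNA control were COL7A1 (1.07), the chain of the anchoring fibrils, COL16A1 (1.11), LOXL4 (1.16) and TGFBI (1.77), and 2-fold lower were COL13A1 (-1.65) and THBS1 (-1.19).

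How far the probe sets of 1 gene lay apart was set out for each comparison. Over the 30 matrix genes with at least 2 probe sets above the filter level, the range of the difference across probe sets had a median of 0.464 in the stable pair, 0.389 in the transient pair and 0.514 between the controls. Over all 7584 such genes these medians were 0.317, 0.267 and 0.730. The range was 1 or more in 2, 0 and 10 of the 30 genes, where it was so in 494, 103 and 2812 of the 7584. A probe set with the opposite sign to the brightest existed for 11 of the 30 in the stable pair, 16 in the transient pair and 13 between the controls, so small differences given above have no settled direction. Sign changes were not counted over all genes, so they are not shown to be a trait of the matrix genes. COL12A1 spanned 3.71 between the controls, with the brightest probe set at 2.52 and another at -1.19, and THBS1 spanned 3.32. The second brightest LOXL2 probe set gave -2.77, whereas the brightest gave 0.15. LOX gave 1.89, 1.11 and -0.33. The direction between the controls therefore depended on the probe set for LOX, COL12A1 and THBS1, as it did for AGRN, COL1A1, COL6A1, HSPG2, LOXL2, LOXL4, FBLN1, LTBP1, CEMIP and EFEMP1, and the part of the labelling input in this was not tested.

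**Figure D4:**
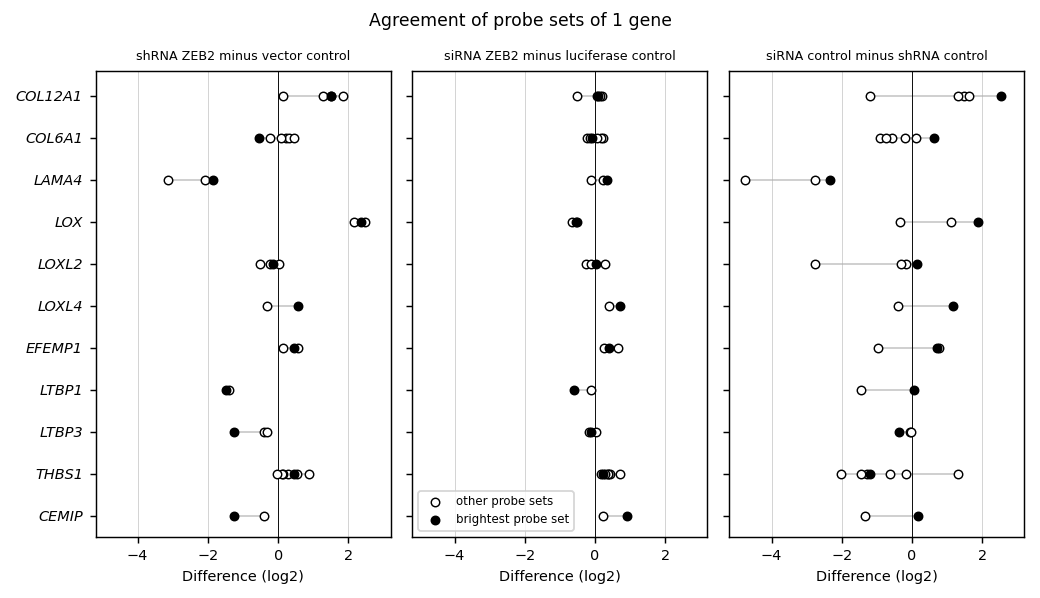
Difference (log2, horizontal axes) of every probe set above the filter level for the 10 matrix genes whose probe sets spanned 1 or more between the controls, and for LTBP3, with the brightest probe set filled. LOX probe sets span 2.15 to 2.48 in the shRNA panel, whereas in the panel of the controls they run -0.33 to 1.89.

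Other genes of matrix assembly and sensing were taken from 4 further lists of 76 genes, of which 63 were kept, 8 were below the filter level and 5 were not analysed here. In the stable knockdown 2 were higher by 2-fold or more and 3 lower by as much, where 2.39% and 2.08% of all genes did. In the transient knockdown 0 reached 2-fold, where 0.172% of all genes did. INHBA, which encodes the activin subunit beta A, read 7.67 in the shRNA knockdown and 4.48 in its control, and 8.85 in the siRNA knockdown and 9.40 in its control. The matrix proteoglycan gene SPOCK1 read 6.39 in the shRNA knockdown and 3.89 in its control, and 8.82 in the siRNA knockdown and 9.11 in its control. As with the brightest probe sets of LUM and LOX, the vector control was the lowest array for both. It lay below the filter level for INHBA and SPOCK1, so the size of their stable differences is uncertain. LAMA2, the alpha chain of muscle laminin, read 5.62 in the shRNA knockdown and 8.15 in its control, and 5.85 and 5.88 in the siRNA knockdown and its control. The crosslinking transglutaminase gene TGM2 (-1.06 and -0.36) and the collagen receptor chain ITGA2 (-1.48 and -0.00026) were the other lower genes. Collagen processing genes had medians of -0.01 and -0.13 over 19 genes in the stable and transient pairs. Matrix receptors had 13 of 15 genes lower in the stable knockdown, with a median of -0.22, where 8030 of all 15082 genes were lower with a median of -0.02, and 8 of 15 lower in the transient one, with a median of -0.00026. Genes of the TGF-beta pathway had medians of -0.17 and 0.06 over 11 genes.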

How the data were processed

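Expression was measured on 4 arrays, 1 per group, grouped by sample title. The deposited values are on a log2 scale, with 1 per probe set and array. The submitters' processing notes name RMA and affy, and their versions are not given in the sources used here. Since RMA forces all arrays onto 1 distribution, overall shifts are hidden, and it compresses differences of dim probe sets. Scanner files were not analysed here.

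Of 54675 probe sets, 41097 carried 1 gene symbol, 1801 several and 11777 none in the platform annotation. A gene was represented by the probe set with the highest mean level. Identifiers of 54 members matched RefSeq (GRCh38.p14). With 1 array per group, differences have no test and were counted at 2-fold, beside the share of all genes. limma 3.58.1 in R 4.3.3 (lmFit, eBayes with trend, 2-sided, Benjamini-Hochberg over all genes) tested a common effect, and its step was checked on simulated data. Its error comes from how far the knockdown differences of the methods disagree, together with the variances of all genes, not from repeated cultures. Figures used matplotlib 3.10.9.

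Array values were given for members at 2-fold in either pair, at 1.5-fold in both pairs, and for the 5 brightest; members at 2-fold between the controls were named with their differences, and other members were summarised by group, with values added for their roles. The members and lists were chosen with earlier results of these data known. Alternatives were the probe set summary, filter, scaling, fold threshold and limma settings.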

Additional observations from a re-analysis of the deposited data

Results flagged for a closer look

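CEMIP stood out because its difference had opposite signs in the pairs, -1.26 in the stable knockdown and 0.91 in the transient one, each at least 1.5-fold. With 1 array per group the gap between the pairs was not tested. Its second probe set read 6.05 in the shRNA knockdown and 6.45 in its control, and 5.34 in the siRNA knockdown and 5.10 in its control, differences of -0.40 and 0.24 with the same signs.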

How the results depend on the processing

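Counts of matrix genes at 2-fold were 9 in the stable pair, 1 in the transient pair and 18 between the controls. Without a filter, with a stricter one (60th percentile), with one on mean level, without cross-hybridising (_x_at) probe sets, and under median centring, quantile normalization and cyclic loess, they were again 9, 1 and 18. Averaging all probe sets of a gene, 7, 1 and 11 of 46 were counted, against 3.29%, 0.0929% and 13.5% of all genes. At 1.5-fold the counts were 16, 4 and 31 (14.7%, 2.20% and 34.0% of all genes), and at 3-fold 4, 0 and 9 (1.40%, 0.0265% and 5.66%). Without genes that differed 2-fold between the controls, an alternative added after the data were seen, they were 4 and 0 of 32 in the pairs (1.79% and 0.0708% of all genes). That alternative removes genes through control arrays that the pairs share, so the lower counts follow from its construction. In limma 0 members were called under all 7 alternatives, with a smallest adjusted p among members between 0.971 and 1, and 1 to 5 members at an unadjusted limma p under 0.05. No other gene was called under them either, so these counts cannot show that the result is stable.

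No difference of a member in either pair at 1.5-fold or more changed sign under another probe set above the filter level or another scaling. Between the controls, among genes at 1.5-fold or more there, signs turned for COL6A1 with the mean of probe sets (-0.20), and on single probe sets for COL1A1 (0.23), COL6A1 (-0.90, -0.57, -0.73 and -0.21), COL12A1 (-1.19), LOX (-0.33), LOXL4 (-0.40), EFEMP1 (-0.98) and THBS1 (1.31). Below 1.5-fold, signs also turned on single probe sets for AGRN, CEMIP, FBLN1, HSPG2, LOXL2 and LTBP1. The cause was not tested. Under the 3 other scalings none of the 150 member differences moved by 1.5-fold or more. The median of all members in the transient pair was 0.0056 under quantile normalization and -0.012 as deposited. The limma fit pairs each knockdown with its control through the method block, and without that block 0 members were called. Signals near or under the filter level of 4.77 limit ZEB2 and, among the matrix genes, LUM, LAMA1, COL4A6, VCAN, NID2, COL1A2 and BGN.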
